A study of Mus musculus with 14 samples.

Results

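The genes described are 36 genes of the unfolded protein response and of the ATF4 stress response, chosen by name and found by mapping the Ensembl gene IDs of the count tables to mouse symbols. All 36 matched, out of 39179 gene IDs in the tables. They form an endoplasmic reticulum (ER) arm of 22 genes and an ATF4 arm of 14 genes, which are reported apart. RNA was sequenced from follicular B cells, the mature B cells that recirculate through lymphoid follicles, isolated with magnetic beads from the spleens of C57BL/6 mice. Wild-type cells (wt) were sampled at 0h, 6h and 27h, and cells of crel-/- mice (cko) and of relb-/-crel-/- mice (dbko) at 0h and 6h. RelB and c-Rel belong to the NF-kB family of transcription factors, and the cultures held BAFF, the survival cytokine of mature B cells, at 50 ng per ml. Each of these 7 groups had 2 libraries, with replicate 1 sequenced in lane 7 and replicate 2 in lane 8 throughout, as the labels give it. The labels give no age of the mice and do not tie libraries to animals, so p-values reflect nothing but the spread between these libraries, which may be technical. No culture without BAFF is analysed here, so BAFF and time in culture cannot be told apart.

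The unfolded protein response is run by 3 sensors in the ER membrane. IRE1 (gene Ern1) removes an intron from Xbp1 RNA, ATF6 is cut in the Golgi to release a transcription factor, and PERK (Eif2ak3) phosphorylates eIF2alpha, which slows translation but favours that of Atf4 RNA. XBP1 and ATF6 turn on chaperones, disulfide isomerases and the machinery that removes misfolded proteins. ATF4, which kinases for amino acid shortage and other stresses also engage through eIF2alpha, turns on amino acid synthesis and feedback genes. In B cells the XBP1 branch is known for preparing plasma cells to secrete antibody. Gene counts show RNA levels only, and neither the splicing of Xbp1 nor the translation of Atf4.

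Promoter letters of members on which the results turn are shown here, to set the elements known for the 2 arms beside the levels that follow. They come from RefSeq on GRCm38.p6, in a window from 250 bases before to 50 bases after the start, which was present for 19 of the 22 ER arm genes and all 14 of the ATF4 arm. Capitals mark the match, which may read from either strand. The stretches shown for Hspa5 and Asns lie before the RefSeq start but overlap exons of the same genes in GENCODE M21, used here to match gene IDs. The first 4 hold the ER stress element (ERSE, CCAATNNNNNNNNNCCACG), the next holds its variant ERSE-II (ATTGGNCCACG), and the last 2 hold the amino acid response element (CARE, TGATGNAAN).
Hspa5, chr2:34772020-34772048, plus strand: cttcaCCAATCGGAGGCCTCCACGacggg
Calr, chr8:84847055-84847113, minus strand: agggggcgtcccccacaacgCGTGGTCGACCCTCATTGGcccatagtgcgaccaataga
Hsp90b1, chr10:86705513-86705571, minus strand: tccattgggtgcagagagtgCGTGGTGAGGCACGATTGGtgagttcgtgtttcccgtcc
Pdia6, chr12:17266471-17266529, plus strand: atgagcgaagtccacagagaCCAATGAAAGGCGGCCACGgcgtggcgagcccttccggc
Herpud1, chr8:94386357-94386407, plus strand: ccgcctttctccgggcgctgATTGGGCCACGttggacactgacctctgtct
Asns, chr6:7693214-7693242, minus strand: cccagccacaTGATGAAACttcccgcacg
Chac1, chr2:119351028-119351076, plus strand: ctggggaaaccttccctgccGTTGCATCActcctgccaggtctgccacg
ERSE letters lay in 8 of the 19 ER arm windows (Calr, Canx, Creld2, Dnajc3, Hsp90b1, Hspa5, Pdia6 and Syvn1) and in 0 of 14 of the ATF4 arm, against 0.119% of all 32851 promoters. ERSE-II lay in 2 ER arm windows, those of Dnajb11 and Herpud1, against 0.037% of all. CARE lay in 4 windows of the ATF4 arm (Asns, Chac1, Nupr1 and Trib3) and in that of Herpud1, against 3.954% of all. The core of a further XBP1 element, TGACGTGG, lay in 0 member windows and in 0.676% of all. No motif searched contains another, and a match is a description of letters, not a tested site.

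Gene counts summed to 10497802 to 11888765 per library, and 12630 genes, 35 of the members among them, were abundant enough to test. Nupr1 (ATF4 arm) was not tested: it stood at 0 in 10 of the 14 libraries and at 0.0850 to 0.324 CPM in the others, which are both wt libraries at 27h and dbko replicate 1 at both times. Levels are CPM, counts scaled to a common library size after TMM, given as replicate 1 and replicate 2, and wild-type levels joined by "then" are in the order 0h, 6h and 27h. Changes are log2 fold changes ± SE from 1 edgeR fit, and a gene is said to rise, fall or differ where its p-value, adjusted over all genes tested, is under 0.05. Shares of all genes are from this fit. None is given for DESeq2, a second test method, or for other runs, so counts from those stand without a share. The targeted gene Rel was at 52.4 to 111 CPM in cko and 40.01 to 61.4 CPM in dbko, against 621 to 683 CPM in wt at 0h and 6h, and Relb was at 53.0 to 88.4 CPM in dbko against 115 to 164 CPM in wt at 0h and 6h and 63.9 and 66.4 CPM in wt at 27h. B cell markers summed in wt to 27420 and 29650 CPM (0h) and then 12620 and 13260 CPM (6h). In such bulk samples fewer cells of a type and less RNA per cell cannot be told apart. The dbko libraries stood apart in erythroid markers, with 10 of 13 listed genes matched and summed levels at 0h of 1232 and 605 CPM and at 6h of 230 and 105 CPM. These sums were 13.3 and 13.3 CPM in wt and 62.6 and 66.2 CPM in cko at 0h. Neutrophil markers summed to 20.7 and 4.89 CPM in dbko at 0h and to at most 0.968 CPM in wt and cko libraries. Retnlg alone made up 14.65 and 1.44 CPM of this dbko sum. Monocyte and macrophage markers (16 of 16 matched, none at 0 in every library) moved as well. From 0h to 6h in wt 13 of them fell, with a median of -2.80, where 23.5% of all genes fell. At 27h 9 of the 16 were lower than at 0h and 1, Mpeg1, was higher, where 24.6% and 23.0% of all genes were. Without Ctss and Cybb, the most abundant, they summed in wt to 263 and 263 CPM (0h), then 130 and 120 CPM (6h), then 280 and 288 CPM (27h). Mpeg1 alone made up 208 and 210 CPM of this sum at 27h. In dbko the sum without Ctss and Cybb, of 14 genes, was 445 and 331 CPM (0h), then 543 and 341 CPM (6h), and in cko it was 122 and 122 CPM, then 131 and 138 CPM. Their part in the results was not tested.

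In wild-type cells most of the ER arm fell between 0h and 6h and was higher again at 27h. From 0h to 6h 14 of the 22 genes fell, where 23.5% of all tested genes fell, and 3 rose (Ern1, Canx and Edem1), where 22.6% of all rose. The median change of the arm was -0.49, and that of all genes was near 0 at -0.0044. Without wt 6h replicate 2 the 17 calls became 11, with 10 lower and 1 higher. From 6h to 27h 15 genes rose, where 15.9% of all rose, and 2 fell (Herpud1 and Dnajb9), where 18.2% of all fell, with a median of 0.55 for the arm and 0.012 for all genes. Against 0h, the 27h level was higher for 10 genes and lower for 3 (Hspa5, Dnajb9 and Herpud1), where 23.0% and 24.6% of all were higher and lower. Of the calls of both arms, 18 of 30, 17 of 23 and 24 of 26 in these 3 comparisons held without any 1 library. The comparisons share libraries and are given side by side only. The wt 6h libraries also had fewer reads that aligned to more than 1 place. These were 38.77 and 41.53% of reads, against 46.99 to 49.85% at 0h and 27h, and their part was not tested.

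**Figure D1:**
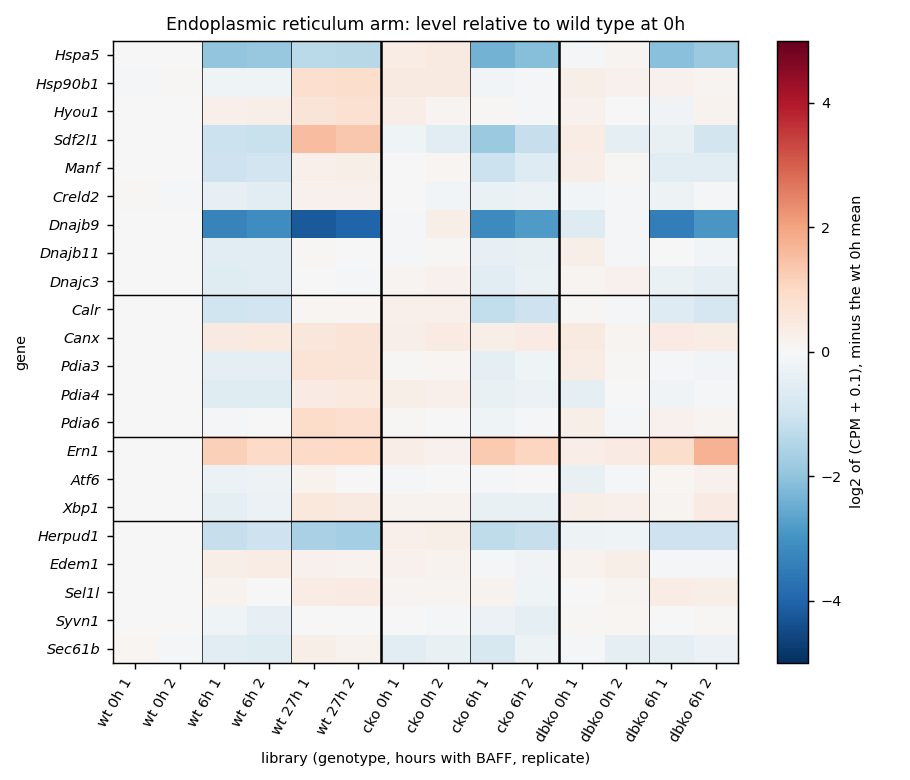
Level of the 22 ER arm genes (rows, by role) in each of the 14 libraries (columns), as log2 of CPM plus 0.1 minus the wt 0h mean of the gene. Hspa5, Dnajb9 and Herpud1 are blue in every library at 6h or 27h, and Hsp90b1, Sdf2l1, Pdia3 and Pdia6 are red in the wt 27h libraries.

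Among the chaperones, Hspa5, which encodes BiP, the main ER chaperone and the brake on the 3 sensors, changed most in amount. Its wt levels were 2525 and 2557 CPM at 0h, then 646 and 690 CPM at 6h, then 989 and 971 CPM at 27h. It fell by 1.93 ± 0.14 to 6h (adjusted p = 9.13e-07) and at 27h was still below 0h, at -1.38 ± 0.14 (adjusted p = 8.31e-06). Its rise from 6h to 27h, 0.55 ± 0.14 (adjusted p = 0.00887), missed the threshold without wt 27h replicate 1 (0.0640), wt 6h replicate 1 (0.0857) or wt 27h replicate 2 (0.0503). Hsp90b1 encodes GRP94, the ER member of the HSP90 family, and took a different course. Its wt levels were 591 and 631 CPM at 0h, then 523 and 534 CPM at 6h, then 1103 and 1134 CPM at 27h, so that the 27h libraries lay above all others. The change to 6h was -0.21 ± 0.10 (adjusted p = 0.119), and the rise from 6h to 27h was 1.08 ± 0.11 (adjusted p = 2.13e-05).

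Dnajb9, the BiP co-chaperone that keeps IRE1 in check, showed the largest fall of the arm at both later times in wt. Its levels were 372 and 361 CPM at 0h, then 35.97 and 42.0 CPM at 6h, then 19.8 and 22.7 CPM at 27h. The fall to 6h was -3.23 ± 0.24 (adjusted p = 1.27e-06), or 9.39-fold, and the difference from 0h at 27h was -4.11 ± 0.25 (adjusted p = 2.39e-07). The step from 6h to 27h, -0.88 ± 0.24 (adjusted p = 0.0139), missed the threshold without wt 27h replicate 1 (0.105), wt 27h replicate 2 (0.0502) or wt 6h replicate 2 (0.0953). About 5.5% of the 50-base words of its transcripts also occur in other genes, so its counts carry some uncertainty. Manf, a secreted ER stress protein, stood at 85.3 and 81.2 CPM at 0h, then 40.4 and 43.4 CPM at 6h, then 99.3 and 102 CPM at 27h. It fell by 0.99 ± 0.14 (adjusted p = 0.000103) and then rose by 1.26 ± 0.14 (adjusted p = 4.04e-05). Sdf2l1, a helper of BiP in the ER, stood at 23.0 and 21.9 CPM, then 10.5 and 10.2 CPM, then 64.9 and 57.4 CPM. Its rise from 6h to 27h of 2.56 ± 0.29 (adjusted p = 7.60e-05) was the largest of the arm. The co-chaperones Dnajb11 and Dnajc3 fell to 6h (by 0.53 ± 0.12, adjusted p = 0.00351, and 0.58 ± 0.11, adjusted p = 0.000823) and rose to 27h (by 0.55 ± 0.12, adjusted p = 0.00423, and 0.50 ± 0.11, adjusted p = 0.00337). Dnajb11 stood at 122 and 122 CPM, then 83.7 and 85.3 CPM, then 126 and 122 CPM, so that the 27h libraries lay at or just above those of 0h.

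The lectin chaperones Calr and Canx, which hold newly made glycoproteins, differed from each other. Calr stood at 995 and 1019 CPM at 0h, then 506 and 524 CPM at 6h, then 1068 and 1090 CPM at 27h, a fall of 0.97 ± 0.12 (adjusted p = 4.37e-05) and a rise of 1.07 ± 0.12 (adjusted p = 5.14e-05). Canx was lowest at 0h, with 388 and 390 CPM, followed by 529 and 544 CPM at 6h and by 574 and 604 CPM at 27h, higher than at 0h by 0.60 ± 0.12 at 27h (adjusted p = 0.00160). Its rise to 6h, 0.46 ± 0.12 (adjusted p = 0.00788), missed the threshold without wt 0h replicate 1 (adjusted p = 0.0558), wt 0h replicate 2 (0.0514) or wt 6h replicate 2 (0.0538). The disulfide isomerase Pdia3, which works with both lectins, stood at 385 and 394 CPM, then 275 and 281 CPM, then 626 and 614 CPM. Its rise from 6h to 27h was 1.16 ± 0.13 (adjusted p = 5.04e-05). Pdia6, which also attenuates IRE1, was level to 6h, at 196 and 201 CPM against 193 and 203 CPM with overlapping libraries, and then rose to 374 and 357 CPM, by 0.88 ± 0.12 (adjusted p = 0.000183). Pdia4 fell to 6h by 0.60 ± 0.14 (adjusted p = 0.00414) and rose to 27h by 1.04 ± 0.14 (adjusted p = 0.000209).

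Among the sensors, Ern1 moved against the chaperones. It stood at 12.3 and 11.7 CPM at 0h, then 27.4 and 23.5 CPM at 6h, then 23.5 and 24.0 CPM at 27h, a rise of 1.08 ± 0.23 to 6h (adjusted p = 0.00213). Xbp1, the target of IRE1, stood at 133 and 131 CPM at 0h, then 94.5 and 106 CPM at 6h, then 190 and 179 CPM at 27h. It rose from 6h to 27h by 0.88 ± 0.11 (adjusted p = 9.88e-05) and was higher at 27h than at 0h by 0.49 ± 0.11 (adjusted p = 0.00231). Its fall to 6h, -0.39 ± 0.11 (adjusted p = 0.00970), missed the threshold without wt 0h replicate 1 (0.0590), wt 6h replicate 1 (0.113) or wt 0h replicate 2 (0.0503). Atf6 stood at 211 and 206 CPM, then 169 and 175 CPM, then 238 and 214 CPM, with -0.28 ± 0.12 to 6h (adjusted p = 0.0696). The 11 plasma cell markers, with Xbp1 not among them, all matched, none was at 0 in every library, and their sum went from 3244 and 3191 CPM at 0h to 1673 and 1786 CPM at 6h, then to 1204 and 1177 CPM at 27h. Irf4, which B cells also express, made up most of it at 0h and 6h. The other 10 markers summed to 623 and 623 CPM (0h), then 453 and 484 CPM (6h), then 734 and 693 CPM (27h). Most of this 27h sum was Mzb1 (384 and 358 CPM) and Txndc5 (206 and 195 CPM), which are also ER folding genes. Of 10 plasma cell markers tested, 1 was higher at 27h than at 0h (Prdm1) and 3 were lower (Irf4, Slamf7 and Sdc1), where 23.0% and 24.6% of all genes were. The part of plasma cells in these levels was not tested.

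Of the genes that remove misfolded proteins, Herpud1, an organiser of the degradation complex, fell at each step. It stood at 377 and 391 CPM at 0h, then 171 and 188 CPM at 6h, then 124 and 119 CPM at 27h, a fall of 1.10 ± 0.10 to 6h (adjusted p = 4.52e-06) and of 0.57 ± 0.10 from 6h to 27h (adjusted p = 0.00116). Edem1, a lectin that marks glycoproteins for degradation, stood at 231 and 234 CPM, then 284 and 297 CPM, then 268 and 260 CPM. Its rise to 6h of 0.32 ± 0.10 (adjusted p = 0.0156) was lost without any 1 of the 4 libraries, wt 0h or wt 6h replicate 1 or 2 (adjusted p = 0.0542 to 0.110). Sel1l, the partner of the ubiquitin ligase, overlapped between 0h (98.4 and 93.7 CPM) and 6h (110 and 94.3 CPM), and stood at 125 and 128 CPM at 27h.

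Per kilobase of exon, the order of the ER arm also changed with time in wt. At 0h Hspa5 led with a mean of 601 CPM per kb, followed by Calr at 350, Herpud1 at 165, Hsp90b1 at 152 and Dnajb9 at 144 CPM per kb. At 6h Calr (179 CPM per kb) and Hspa5 (158 CPM per kb) led, and Dnajb9 had moved from place 5 to place 17 of 22, at 15.3 CPM per kb. At 27h Calr (375 CPM per kb), Hsp90b1 (277 CPM per kb) and Hspa5 (232 CPM per kb) led. Ern1 was lowest at all times, at 1.47 to 3.11 CPM per kb. Of the 8 genes with ERSE letters 5 fell to 6h in wt and 6 rose from 6h to 27h, and of the 11 other genes with a promoter window 8 fell to 6h and 6 rose to 27h, where 23.5% of all genes fell and 15.9% rose at these steps.

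Other lists of the same machinery held genes that rose and genes that fell to 6h, where 22.6% of all genes rose and 23.5% fell. Of 18 other ER folding genes 7 fell and 4 rose from 0h to 6h (median change -0.27), among them Txndc5 at -0.83 ± 0.09 (adjusted p = 2.40e-05) and the oxidase Ero1l, which rose by 2.72 ± 0.28 (adjusted p = 2.95e-05). From 6h to 27h 8 of these 18 rose and 0 fell, where 15.9% of all genes rose and 18.2% fell. Txndc5 rose by 0.65 ± 0.09 (adjusted p = 0.000317) and the isomerase P4hb by 0.80 ± 0.14 (adjusted p = 0.000966). At an unadjusted p under 0.05 in edgeR 2 of the 18 were lower, and DESeq2 called 1 lower. Of 18 other ER degradation genes 6 rose and 7 fell to 6h, with a median of -0.012. Of 23 genes of ER translocation and secretion 5 rose and 2 fell. Of 14 other sensors and eIF2alpha regulators 4 rose and 3 fell to 6h, and Eif2ak3, the gene of PERK, then fell from 6h to 27h by 1.57 ± 0.16 (adjusted p = 3.10e-05).

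The ATF4 arm moved both ways in wild-type cells. From 0h to 6h all 13 tested genes changed: 8 rose, where 22.6% of all rose, and 5 fell, where 23.5% of all fell. The risers were the 5 enzymes of amino acid and folate metabolism with Trib3, Chac1 and Ddit4, and the genes that fell were Atf4, Ddit3, Cebpb, Ppp1r15a and Sesn2. The median was 0.59, and for all genes it was near 0. From 6h to 27h 3 rose (Psat1, Ddit4 and Phgdh), where 15.9% of all rose, and 3 fell (Ddit3, Atf4 and Ppp1r15a), where 18.2% of all fell. At 27h 8 were above and 5 below their 0h levels, where 23.0% and 24.6% of all were. The rises of Psat1 and Phgdh to 6h missed the threshold without wt 0h replicate 1, wt 0h replicate 2 or wt 6h replicate 1 (Psat1, adjusted p = 0.0764 to 0.112) and without wt 0h replicate 2, wt 6h replicate 1 or wt 6h replicate 2 (Phgdh, 0.107 to 0.298). That of Asns did without wt 0h replicate 2 (0.0622), and that of Phgdh from 6h to 27h did without any of the 4 (0.132 to 0.194) and with a block for replicate number (0.0505).

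**Figure D2:**
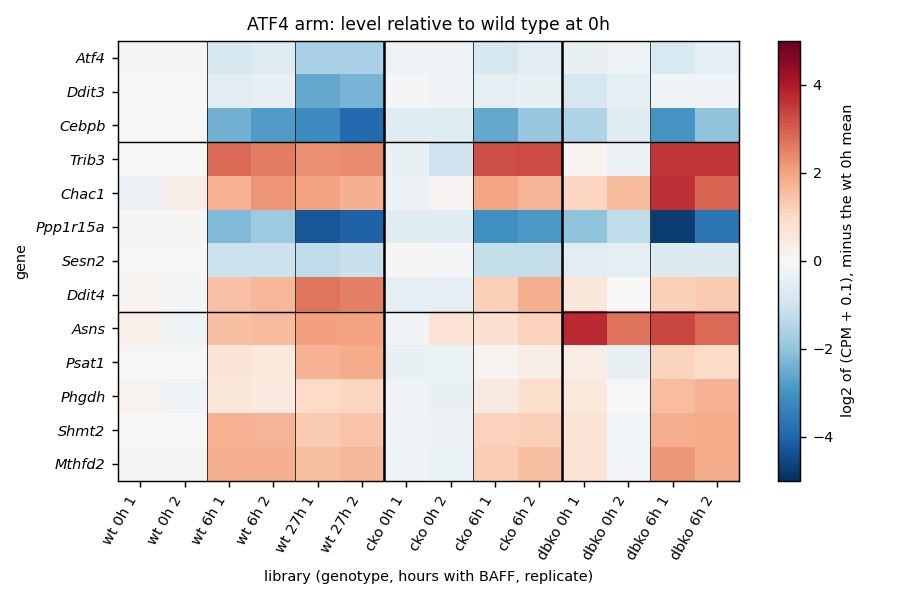
Level of the 13 tested genes of the ATF4 arm (rows, by role) in each of the 14 libraries (columns), as log2 of CPM plus 0.1 minus the wt 0h mean of the gene. Rows of Cebpb and Ppp1r15a are blue after culture, those of Trib3, Chac1 and the enzymes are red, and Asns is already red in both dbko libraries at 0h.

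The 3 tested transcription factor genes were highest at 0h in wt. Atf4 stood at 906 and 965 CPM at 0h, then 540 and 593 CPM at 6h, then 305 and 302 CPM at 27h, with no overlap between times. It fell by 0.72 ± 0.13 to 6h (adjusted p = 0.000878) and by 0.90 ± 0.14 from 6h to 27h (adjusted p = 0.000450). Ddit3, which encodes the death-linked factor CHOP, stood at 149 and 149 CPM, then 99.7 and 112 CPM, then 25.3 and 29.6 CPM. It fell from 6h to 27h by 1.95 ± 0.14 (adjusted p = 3.04e-06), and its fall to 6h, -0.49 ± 0.13 (adjusted p = 0.00788), missed the threshold without wt 6h replicate 1 (0.0843). Cebpb, a partner of these factors, stood at 17.7 and 18.2 CPM at 0h, then 3.29 and 2.46 CPM at 6h, then 1.87 and 1.12 CPM at 27h, a fall of 2.64 ± 0.38 to 6h (adjusted p = 0.000145). Exons of Cebpb, like those of Manf and Hsp90b1 in the ER arm, overlap exons of antisense genes, and how the counting treated strand was not given in the sources used here.

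The feedback genes of ATF4 went opposite ways. Ppp1r15a encodes GADD34, which returns eIF2alpha to its unphosphorylated state, and stood at 804 and 857 CPM at 0h, then 178 and 235 CPM at 6h, then 43.5 and 49.8 CPM at 27h. It fell by 2.01 ± 0.33 to 6h (adjusted p = 0.000623) and by 4.15 ± 0.36 over 27h (adjusted p = 8.38e-06), or 17.8-fold. Trib3, a pseudokinase that binds ATF4, stood at 2.29 and 2.42 CPM at 0h, then 17.6 and 14.5 CPM at 6h, then 11.8 and 12.4 CPM at 27h, a rise of 2.76 ± 0.22 to 6h (adjusted p = 1.37e-06). Sesn2, a leucine sensor that restrains mTORC1, stood at 41.6 and 43.8 CPM, then 20.1 and 20.04 CPM, then 17.6 and 19.6 CPM, a fall of 1.09 ± 0.12 to 6h (adjusted p = 1.78e-05). Ddit4 also restrains mTORC1, through the TSC complex, and rose at both steps, from 26.4 and 23.5 CPM to 69.2 and 79.7 CPM and then 159 and 145 CPM. Its rise over 27h was 2.61 ± 0.20 (adjusted p = 1.23e-06). Chac1, which breaks down glutathione, was near the limit of detection, at 0.417 and 0.678 CPM (0h) and then 2.01 and 2.80 CPM (6h), a rise of 2.11 ± 0.46 (adjusted p = 0.00241).

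Immediate early genes, the first to be induced by many signals, moved with the genes that fell. The 23 listed genes summed to 21980 and 22220 CPM in wt at 0h, then 3313 and 4010 CPM at 6h, then 1388 and 1252 CPM at 27h. Cytosolic heat shock genes summed to 9580 and 9797 CPM at 0h, then 4398 and 4662 CPM at 6h, then 6263 and 6644 CPM at 27h. Their part in the falls of Hspa5, Dnajb9, Atf4, Ppp1r15a and Cebpb was not tested.

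The enzymes rose. Shmt2 and Mthfd2, which carry out successive steps of the mitochondrial folate cycle, rose to 6h and stayed above 0h. Shmt2 stood at 80.7 and 76.6 CPM at 0h, then 266 and 255 CPM at 6h, then 195 and 213 CPM at 27h, a rise of 1.73 ± 0.19 to 6h (adjusted p = 2.39e-05). Mthfd2 stood at 27.9 and 30.3 CPM, then 99.4 and 104 CPM, then 82.8 and 89.8 CPM, a rise of 1.804 ± 0.21 to 6h (adjusted p = 4.19e-05). Psat1, of serine synthesis, was highest at 27h, with 160 and 170 CPM, against 48.0 and 46.8 CPM (0h) and 75.7 and 67.5 CPM (6h). It rose from 6h to 27h by 1.20 ± 0.18 (adjusted p = 0.000459). Asns, asparagine synthetase, stood at 3.13 and 2.23 CPM at 0h, then 7.60 and 8.07 CPM at 6h, then 11.1 and 11.02 CPM at 27h, higher at 27h than at 0h by 2.05 ± 0.38 (adjusted p = 0.000867). Phgdh, the first enzyme of serine synthesis, stood at 27.6 and 21.2 CPM, then 35.8 and 34.2 CPM, then 48.9 and 51.4 CPM, and 47.8% of its 50-base words occur in other genes or pseudogenes, so its counts are uncertain.

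Further ATF4 targets, listed apart from the members, mostly rose to 6h. In wt 15 of 27 rose and 4 fell, with a median of 0.76, where 22.6% of all genes rose and 23.5% fell. Atf3 and Gadd45a, which are also stress response genes, fell by 5.23 ± 0.17 (adjusted p = 3.62e-09) and 3.16 ± 0.23 (adjusted p = 1.05e-06), and the tRNA exporter Xpot rose by 1.33 ± 0.12 (adjusted p = 3.92e-06). Of 20 cytosolic tRNA synthetase genes, which charge tRNAs with amino acids, 14 rose and 1 fell, with a median of 1.06 and Cars at 2.28 ± 0.13 (adjusted p = 1.26e-07). From 6h to 27h 5 of the 27 targets rose and 8 fell, where 15.9% of all genes rose and 18.2% fell. Among those that fell were the amino acid transport genes Slc7a1, at -1.57 ± 0.15 (adjusted p = 2.18e-05), and Slc3a2, at -1.20 ± 0.15 (adjusted p = 0.000103).

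**Figure D3:**
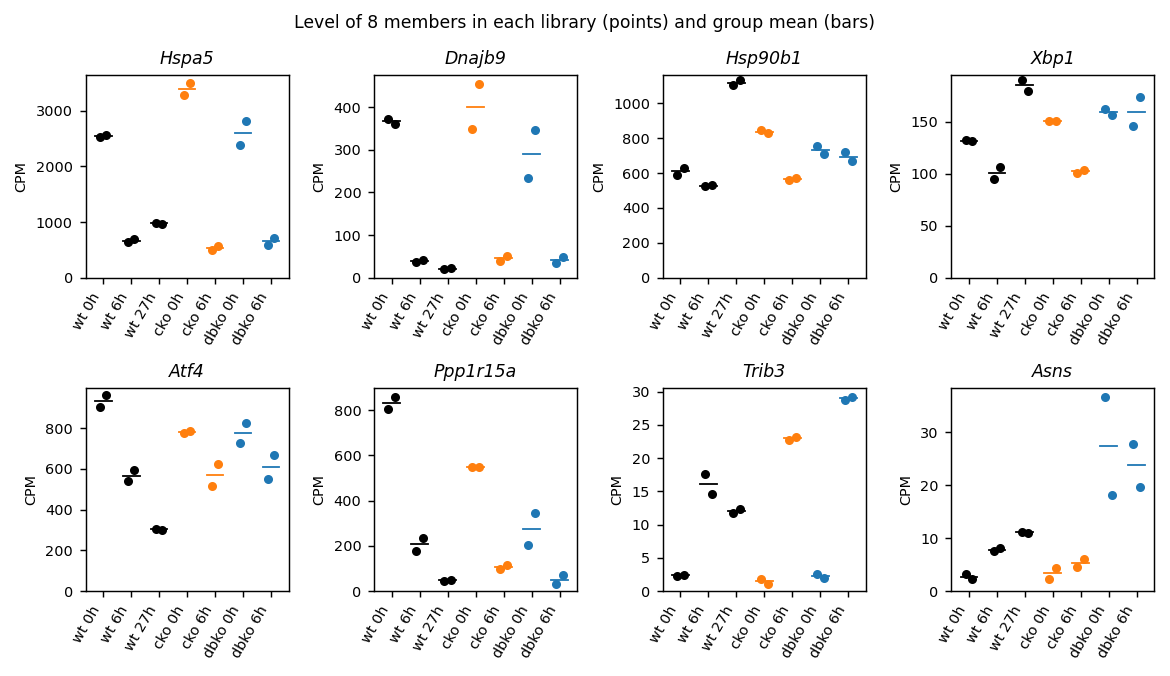
Level in CPM (linear axes from 0) of 8 members in each library, with 2 points per group and a bar at the group mean. Hspa5, Dnajb9 and Ppp1r15a drop from 0h to 6h in all 3 genotypes, Trib3 rises in all 3, and Asns is highest in dbko at 0h.

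The 6h courses of the 3 genotypes, which share no library, had a common core in both arms. In cko 14 ER arm genes fell and 1 rose (20.1% of all genes fell and 21.8% rose), and in dbko 7 fell and 2 rose (20.3% of all fell and 19.3% rose). The arm's median change was -0.40 in cko and -0.12 in dbko, with medians over all genes of 0.046 and 0.029. Calr, Dnajb9, Dnajc3, Herpud1, Hspa5 and Manf fell in all 3 genotypes, and Ern1 rose in all 3. In the ATF4 arm 7 genes rose and 4 fell in cko, and 8 rose and 2 fell in dbko, with medians of 0.65 and 0.93. Chac1, Ddit4, Mthfd2, Phgdh, Psat1, Shmt2 and Trib3 rose in all 3 genotypes, and Cebpb and Ppp1r15a fell in all 3. Of these calls in cko and dbko, Ern1 in cko missed the threshold without cko 0h replicate 2 (adjusted p = 0.0535), Psat1 in cko without cko 0h replicate 1 (0.112), cko 0h replicate 2 (0.0883) or cko 6h replicate 2 (0.118), and Cebpb in dbko without dbko 6h replicate 1 (0.0524) or dbko 0h replicate 2 (0.107). Atf4 in dbko gave -0.35 ± 0.13 (adjusted p = 0.0529), which passed with a block for replicate number (0.0281).

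Hspa5 stood at 3289 and 3499 CPM in cko at 0h and 489 and 576 CPM at 6h, a fall of 2.67 ± 0.15 (adjusted p = 9.57e-08). In dbko it went from 2376 and 2813 CPM to 595 and 711 CPM, a fall of 1.99 ± 0.14 (adjusted p = 8.55e-07). Dnajb9 went from 347 and 455 CPM to 40.4 and 51.2 CPM in cko and from 234 and 347 CPM to 33.5 and 48.8 CPM in dbko, falls of 3.13 ± 0.23 (adjusted p = 1.78e-06) and 2.82 ± 0.23 (adjusted p = 3.84e-06). Every 6h library of these 2 genes lay below every 0h library of its genotype. Herpud1 went from 457 and 475 CPM to 157 and 171 CPM in cko and from 318 and 330 CPM to 187 and 186 CPM in dbko, falls of 1.51 ± 0.10 (adjusted p = 4.34e-07) and 0.80 ± 0.10 (adjusted p = 5.69e-05). Calr went from 1210 and 1191 CPM to 433 and 496 CPM in cko, and from 1041 and 972 CPM to 652 and 568 CPM in dbko, falls of 1.37 ± 0.12 (adjusted p = 3.55e-06) and 0.72 ± 0.12 (adjusted p = 0.000417). Manf went from 83.4 and 89.0 CPM to 39.5 and 53.0 CPM in cko and from 104 and 86.7 CPM to 56.6 and 55.8 CPM in dbko.

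In the ATF4 arm, Trib3 rose from 1.799 and 1.09 CPM to 22.8 and 23.2 CPM in cko and from 2.54 and 1.92 CPM to 28.8 and 29.2 CPM in dbko, by 3.99 ± 0.23 (adjusted p = 1.68e-07) and 3.69 ± 0.22 (adjusted p = 2.14e-07). Ppp1r15a fell from 550 and 548 CPM to 98.9 and 113 CPM in cko and from 205 and 344 CPM to 31.0 and 68.6 CPM in dbko, by 2.37 ± 0.33 (adjusted p = 0.000273) and 2.46 ± 0.34 (adjusted p = 0.000265). Mthfd2 rose from 25.4 and 22.9 CPM to 70.3 and 83.8 CPM in cko, and from 46.7 and 26.2 CPM to 131 and 106 CPM in dbko. Shmt2 rose from 66.9 and 63.4 CPM to 175 and 181 CPM in cko and from 128 and 72.2 CPM to 277 and 282 CPM in dbko. Ddit4 rose from 18.2 and 18.1 CPM to 57.4 and 86.9 CPM in cko and from 36.7 and 25.1 CPM to 56.5 and 61.5 CPM in dbko. Immediate early genes summed to 17380 and 17460 CPM in cko and 9174 and 14800 CPM in dbko at 0h, and to 2278 and 2798 CPM and 1734 and 2535 CPM at 6h.

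Few of these genes passed the test between cko and wt. At 0h, where 0.918% of all genes were higher and 0.578% lower in cko, edgeR called 0 of 22 ER arm genes and 0 of 13 tested ATF4 arm genes. At an unadjusted p under 0.05, which 13.3% of all genes passed, 4 ER arm genes were higher and 1 lower, and 1 ATF4 arm gene was lower. DESeq2 called 4 ER arm genes higher (Hspa5, Hsp90b1, Canx and Herpud1) and 0 of the ATF4 arm, with no share of all genes given for DESeq2. Both cko libraries of Hspa5 lay above both of wt, by 0.42 ± 0.14 (adjusted p = 0.181). Hsp90b1 stood at 845 and 828 CPM in cko at 0h against 591 and 631 CPM in wt, a difference of 0.45 ± 0.10 (adjusted p = 0.0541). Cytosolic heat shock genes summed to 16890 and 16980 CPM in these cko libraries and to 9580 and 9797 CPM in wt, and their part was not tested.

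At 6h 1.58% of all genes were higher and 1.96% lower in cko than in wt, and edgeR called 1 ER arm gene, Edem1, which was lower. Edem1 stood at 224 and 206 CPM in cko and 284 and 297 CPM in wt, a difference of -0.44 ± 0.10 (adjusted p = 0.0284), which missed the threshold without wt 6h replicate 1 (0.154), cko 6h replicate 2 (0.177) or wt 6h replicate 2 (0.275). Of the ATF4 arm 0 genes were called by edgeR or DESeq2, and at an unadjusted p under 0.05, which 18.1% of all genes passed, 1 was higher and 2 lower. With a block for replicate number, Ppp1r15a was called lower in cko (98.9 and 113 CPM against 178 and 235 CPM), at -0.95 ± 0.23 (adjusted p = 0.0433), against an adjusted p of 0.140 with no block. Xbp1 stood at 101 and 103 CPM in cko and 94.5 and 106 CPM in wt, with overlapping libraries. Atf4 overlapped too, at 518 and 626 CPM in cko and 540 and 593 CPM in wt.

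The dbko cells differed from wt at 0h in 4 genes of the ATF4 arm. Asns stood at 36.6 and 18.1 CPM in dbko and 3.13 and 2.23 CPM in wt, higher by 3.35 ± 0.38 (adjusted p = 0.000146), or 10.2-fold, and in cko at 2.33 and 4.37 CPM, 3.02 ± 0.37 below dbko (adjusted p = 0.000590). Both dbko libraries lay above all wt and cko libraries at 0h, and both calls held without any 1 library. The higher Asns level was in replicate 1, which also had the higher erythroid sum (1232 against 605 CPM) and neutrophil sum (20.7 against 4.89 CPM). Most of that neutrophil sum in replicate 1 was Retnlg (14.65 against 1.44 CPM). Dendritic cell markers, 5 of 8 tested being higher in dbko than in wt at 0h, summed to 129 and 118 CPM in dbko, 62.4 and 61.2 CPM in wt and 70.9 and 67.0 CPM in cko. The part of these cells in the differences was not tested. Of the ATF4 arm 1 gene was higher and 3 were lower in dbko than in wt, where 7.1% of all genes were higher and 4.55% lower. Without dbko 0h replicate 1, wt 0h replicate 1 or wt 0h replicate 2 the count was 1, Asns alone, and without dbko 0h replicate 2 it was 7.

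The 3 lower genes were Ppp1r15a, Ddit3 and Sesn2. Ppp1r15a stood at 205 and 344 CPM in dbko against 804 and 857 CPM in wt, at -1.60 ± 0.32 (adjusted p = 0.0103), and missed the threshold without dbko 0h replicate 1 (0.0880), wt 0h replicate 1 (0.0586) or wt 0h replicate 2 (0.0720). Ddit3 stood at 82.6 and 108 CPM against 149 and 149 CPM, at -0.65 ± 0.13 (adjusted p = 0.00742), with 0.0615 to 0.0695 without the same libraries. Sesn2 stood at 29.7 and 30.5 CPM against 41.6 and 43.8 CPM, at -0.50 ± 0.12 (adjusted p = 0.0143), with 0.0729 to 0.134 without them. The immediate early sum in dbko, 9174 and 14800 CPM, was below that of wt, 21980 and 22220 CPM, and lower in the same replicate as Ppp1r15a and Ddit3. Its part was not tested.

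In the ER arm edgeR called 0 of 22 genes between dbko and wt at 0h, with 4 higher and 1 lower at an unadjusted p under 0.05, which 28.3% of all genes passed, and DESeq2 called 1 (Hsp90b1, higher). Without dbko 0h replicate 2 edgeR called 4. Atf4, at 728 and 825 CPM in dbko against 906 and 965 CPM in wt, gave -0.27 ± 0.13 (adjusted p = 0.213). Against cko at 0h 2 ER arm genes were lower in dbko (Herpud1 and Pdia4) and 0 higher. At an unadjusted p under 0.05, which 24.1% of all genes passed, 5 were lower and 0 higher, and DESeq2 called 3 lower (Hspa5, Pdia4 and Herpud1) and 0 higher. Of the ATF4 arm 2 were higher (Asns and Ddit4) and 2 lower (Sesn2 and Ddit3), where 6.63% of all genes were higher and 2.39% lower. Herpud1 differed by -0.52 ± 0.10 (adjusted p = 0.00573), which became 0.0736 without cko 0h replicate 2. Apart from Asns and Herpud1, these calls were lost without cko 0h replicate 1, dbko 0h replicate 1 or cko 0h replicate 2, with adjusted p-values of 0.0667 to 0.500. With a block for replicate number, Ppp1r15a (-1.05 ± 0.23, adjusted p = 0.0131) and Dnajb9 (-0.47 ± 0.14, adjusted p = 0.0446) were also called lower. With no block their adjusted p-values were 0.079 and 0.207. Monocyte and macrophage markers were higher for 11 of 16 and lower for 1 in dbko against cko at 0h, and their part was not tested.

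At 6h both arms leaned higher in dbko than in wt. In the ER arm 8 genes were higher and 1 lower, and in the ATF4 arm 5 were higher and 1 lower, where 15.2% of all genes were higher and 11.5% lower. The medians were 0.27 and 0.29, against 0.052 for all genes. The wider lists did not share this lean throughout. Genes higher and lower in dbko were 2 and 2 of 18 other ER folding genes and 2 and 0 of 18 other ER degradation genes. ER translocation and secretion gave 3 and 1 of 23, and other sensors and eIF2alpha regulators 1 and 1 of 14. Other ATF4 targets gave 7 and 5 of 27, and cytosolic tRNA synthetases 0 and 1 of 20. Monocyte and macrophage markers were higher in dbko for 13 of 16, with a median of 2.99, and marginal zone or B-1 markers for 6 of 10. The latter summed to 890 and 1102 CPM in dbko, 656 and 664 CPM in wt and 749 and 779 CPM in cko. Cr2, of the same list, went the other way, at 120.5 and 144 CPM in dbko against 247 and 237 CPM in wt. The part of these cells in the differences between dbko and wt was not tested. The ER arm count of 9 rested on single libraries: leaving out wt 6h replicate 2 gave 1, wt 6h replicate 1 gave 2 and dbko 6h replicate 1 gave 4. Creld2 was lost with a block for replicate number (adjusted p = 0.0572). The ATF4 arm count was 3 without wt 6h replicate 2.

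**Figure D4:**
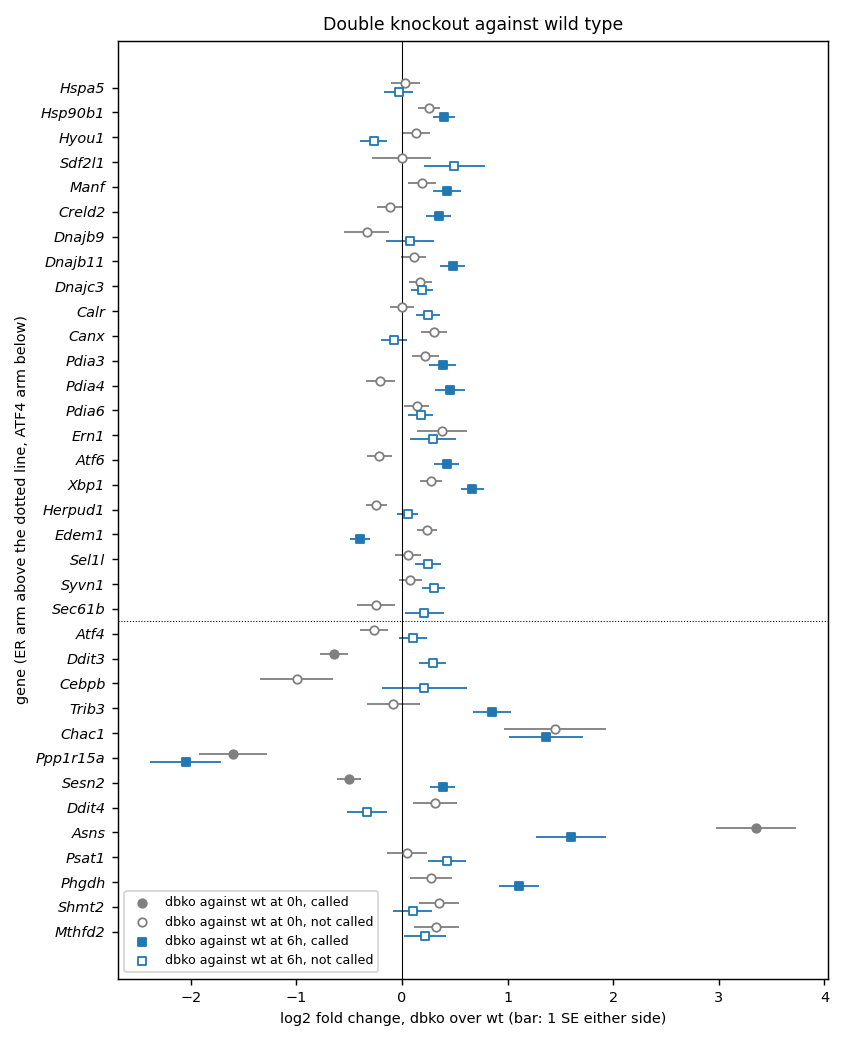
Log2 fold change of dbko over wt, with bars of 1 SE on either side, for the 35 tested members at 0h (grey circles) and 6h (blue squares), filled where the adjusted p is under 0.05. Asns lies farthest to the right at both times, Ppp1r15a farthest to the left, and the ER arm points at 6h lie mostly to the right of 0.

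Xbp1 was the ER arm gene whose difference held without any 1 library. It stood at 146 and 173 CPM in dbko at 6h against 94.5 and 106 CPM in wt and 101 and 103 CPM in cko, higher by 0.67 ± 0.11 (adjusted p = 0.000970) and 0.64 ± 0.11 (adjusted p = 0.00257). At 0h its levels were 162 and 156 CPM in dbko, 133 and 131 CPM in wt and 151 and 151 CPM in cko, with 0.27 ± 0.11 against wt (adjusted p = 0.113). Hsp90b1 stood at 718 and 671 CPM in dbko against 523 and 534 CPM in wt, at 0.39 ± 0.10 (adjusted p = 0.0158), and Dnajb11 at 125 and 111 CPM against 83.7 and 85.3 CPM, at 0.48 ± 0.12 (adjusted p = 0.0124). Both missed the threshold without dbko 6h replicate 1, wt 6h replicate 1 or wt 6h replicate 2, with adjusted p-values of 0.0766 to 0.114 for Hsp90b1 and 0.0674 to 0.0850 for Dnajb11. Hspa5 overlapped, at 595 and 711 CPM against 646 and 690 CPM, and Herpud1 overlapped at 187 and 186 CPM against 171 and 188 CPM. The lower gene was Edem1, at 217 and 224 CPM against 284 and 297 CPM, a difference of -0.40 ± 0.10 (adjusted p = 0.0100) that missed the threshold without dbko 6h replicate 1 (0.0518) or wt 6h replicate 2 (0.0941).

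In the ATF4 arm at 6h, Ppp1r15a was lower in dbko, at 31.0 and 68.6 CPM against 178 and 235 CPM, by -2.05 ± 0.33 (adjusted p = 0.00184). Asns was higher, at 27.8 and 19.6 CPM against 7.60 and 8.07 CPM in wt and 4.57 and 5.97 CPM in cko, by 1.60 ± 0.33 (adjusted p = 0.00465) and 2.17 ± 0.34 (adjusted p = 0.00223). Phgdh, which shares sequence with other genes, was higher, at 70.6 and 80.3 CPM against 35.8 and 34.2 CPM, by 1.11 ± 0.19 (adjusted p = 0.00142). All 3 differences from wt held without any 1 library. Trib3, at 28.8 and 29.2 CPM against 17.6 and 14.5 CPM, was higher by 0.85 ± 0.18 (adjusted p = 0.00455), which became 0.0720 without wt 6h replicate 2. Atf4 overlapped, at 548 and 668 CPM in dbko and 540 and 593 CPM in wt.

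Against cko at 6h 3 ER arm genes (Xbp1, Syvn1 and Calr) and 6 ATF4 arm genes (Asns, Phgdh, Psat1, Chac1, Sesn2 and Shmt2) were higher in dbko and 0 of either were lower, where 8.77% of all genes were higher and 4.66% lower. At an unadjusted p under 0.05 0 ER arm genes and 1 ATF4 arm gene were lower, and DESeq2 called 0 and 1 lower. The ER arm count was 1 without dbko 6h replicate 1, and the ATF4 arm count was 1 without cko 6h replicate 1 and 2 without dbko 6h replicate 1 or cko 6h replicate 2. Xbp1 and Asns kept their calls without any 1 library. At 6h erythroid markers summed to 230 and 105 CPM in dbko, 4.40 and 6.95 CPM in cko and 1.92 and 2.04 CPM in wt, and monocyte and macrophage markers were higher in dbko than in cko for 13 of 16 and lower for 1, with a median of 3.01. Their part in the differences was not tested. With a block for replicate number, Ppp1r15a was called lower than in cko, at -1.14 ± 0.24 (adjusted p = 0.00837), against an adjusted p of 0.053 with no block.

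Whether the 6h course itself differed between genotypes was tested as a difference of the 6h minus 0h changes. For dbko against wt, 2 ER arm genes gave a higher difference (Pdia4 and Atf6) and 1 a lower (Edem1), and 2 ATF4 arm genes a higher (Ddit3 and Sesn2) and 1 a lower (Asns), where 6.9% of all genes gave a higher and 6.94% a lower. Ddit3 rose in dbko, from 82.6 and 108 CPM to 127 and 132 CPM, and fell in wt, a difference of 0.93 ± 0.18 (adjusted p = 0.00729). The rise within dbko, 0.44 ± 0.13 (adjusted p = 0.0171), missed the threshold without dbko 0h replicate 1 (0.169) or dbko 6h replicate 2 (0.0515). Sesn2 went from 29.7 and 30.5 CPM to 26.7 and 25.7 CPM in dbko while it fell in wt, a difference of 0.89 ± 0.17 (adjusted p = 0.00546). Both differences held without any 1 library. Calls missed the threshold without 6 of the 8 libraries for Pdia4 (adjusted p = 0.0645 to 0.135) and Asns (0.0599 to 0.154), 5 for Atf6 (0.0684 to 0.0978) and 3 for Edem1 (0.0551 to 0.0624). The ER arm count of 3 became 0 without wt 0h replicate 1, wt 0h replicate 2 or wt 6h replicate 2, and leaving out wt 6h replicate 1 gave 1. Likewise the ATF4 arm count became 6 without dbko 0h replicate 2. For cko against wt, edgeR called 1 ER arm gene (Edem1) with a lower difference and 0 with a higher, where 1.15% and 0.554% of all genes were called. At an unadjusted p under 0.05, which 16.1% of all genes passed, 7 ER arm genes gave a lower difference and 0 a higher. DESeq2 called 5 ER arm genes lower (Hspa5, Hsp90b1, Canx, Herpud1 and Edem1) and 0 higher, with no share of all genes given for DESeq2. Of the ATF4 arm 0 were called by edgeR or DESeq2, with 1 higher and 0 lower at an unadjusted p under 0.05. The Edem1 difference was -0.62 ± 0.14 (adjusted p = 0.0434). It missed the threshold without 7 of the 8 libraries compared, all but cko 6h replicate 1 (adjusted p = 0.131 to 0.223), and with a block for replicate number (0.0507).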

How the data were processed

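The deposited values are whole-number counts of reads per Ensembl gene ID, 1 table per library, with tallies of reads outside genes at the end, which were left out. CASAVA 1.8.2 is listed in the submitters' processing notes. Aligner, counter, genome build, annotation and strand setting were not given in the sources used here. Of the reads tallied, 38.77 to 49.85% aligned to more than 1 place and are outside the gene counts, and 5.21 to 11.46% lay in no feature. In wt the former were 49.85 and 49.38% (0h), then 38.77 and 41.53% (6h), then 47.12 and 46.99% (27h). The latter were 5.57 and 5.69%, then 11.46 and 9.67%, then 6.91 and 7.49%. In cko and dbko the former were 46.85 to 48.16% at 0h and 39.75 to 46.46% at 6h. The latter were 6.06 to 6.63% and 5.21 to 9.76%. The part of these differences in the results was not tested. IDs were matched to GENCODE M21 (37693 of 39179, with 99.5573% of the counts). Counts were scaled by TMM and fitted in edgeR 4.0.16 (R 4.3.3, limma 3.58.1; filterByExpr by group, robust quasi-likelihood fit, 14 libraries, 1 mean per group, 7 residual degrees of freedom, common biological coefficient of variation 0.1439), with two-sided tests of 13 comparisons and Benjamini-Hochberg adjustment over 12630 genes. SE is the log2 fold change over the root of F. The fit was tested on simulated data. Deviations of same-numbered libraries from their group means correlated above 0.1 in 4 of 21 pairs of groups (0.11 to 0.16 between the 3 groups at 6h, 0.48 between dbko at 0h and 6h). Alternatives were DESeq2 1.42.0 and its size factors, no filter on low counts, a block for replicate number (which is also the sequencing lane, 7 or 8, in the labels), and leaving out each library or 1 dbko replicate at both times, where the single library left is taken to vary like other groups. Summaries and figures used Python 3.11.15, pandas 2.3.3, NumPy 2.4.6 and Matplotlib 3.10.9.

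All members and lists were chosen with earlier results of these data known. By the naming rule, every member may be named, values of every library are given for Hspa5, Hsp90b1, Xbp1, Herpud1, Atf4, Ddit3, Trib3, Asns and Ppp1r15a and, per comparison, for up to 4 called members of each arm with the smallest adjusted p, and up to 3 called genes of each other list are named. Other marker lists gave these sums over the 14 libraries: marginal zone or B-1 cells 551 to 1504 CPM, monocytes and macrophages 896 to 1749 CPM (mostly Ctss and Cybb), T cells 53.9 to 102 CPM, NK cells 2.32 to 27.3 CPM and dendritic cells 46.2 to 129 CPM.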

Additional observations from a re-analysis of the deposited data

Results flagged for a closer look

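The 6h change differed between genotypes, by the interaction test in edgeR, for 6 members between dbko and wt and for 1 between cko and wt. Of all genes tested, 6.9% gave a higher and 6.94% a lower difference for dbko, and 0.554% and 1.15% for cko. Values are the knockout's log2 change minus that of wt. Ddit3 gave 0.93 and Sesn2 0.89, and both differences passed without any 1 library. Asns gave -1.76, with the 36.6 and 18.1 CPM of dbko at 0h already above the 7.60 and 8.07 CPM of wt at 6h. Its call was lost without dbko 0h replicate 1, dbko 6h replicate 2 or any 1 of the 4 wt libraries (adjusted p = 0.0599 to 0.154). Pdia4 gave 0.66, lost without the same 6 libraries (0.0645 to 0.135), and Atf6 gave 0.64, lost without dbko 0h replicate 1 or any 1 of the 4 wt libraries (0.0684 to 0.0978). Edem1 gave -0.63 in dbko, lost without wt 0h replicate 1, wt 0h replicate 2 or wt 6h replicate 2 (0.0551 to 0.0624), and -0.62 in cko, lost without 7 of 8 libraries, all but cko 6h replicate 1 (0.131 to 0.223).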

How the results depend on the processing

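Counts of called members, ER arm then ATF4 arm, over the runs that left out 1 library were 11 to 13 and 10 to 12 in wt at 6h against 0h. The ER arm gave 0 to 4 and the ATF4 arm 1 to 7 for dbko against wt at 0h, 0 to 4 and 1 to 9 for dbko against cko at 0h, 1 to 6 and 3 to 6 for dbko against wt at 6h, and 1 to 4 and 1 to 7 for dbko against cko at 6h. For cko against wt at 6h the ER arm gave 0 to 1. The difference in 6h change gave 0 to 1 (ER arm) for cko and 0 to 4 and 2 to 6 for dbko. Without dbko replicate 2 at both times, the counts were 10 and 10 for dbko against wt at 0h, 8 and 10 against cko at 0h, 8 (ER arm) against cko at 6h, and 5 and 6 for the difference in 6h change. Without dbko replicate 1 at both times they were 1 (ER arm) against cko at 0h and 5 and 6 for the difference in 6h change. DESeq2 called 4 ER arm genes for cko against wt at 0h, 1 for dbko against wt at 0h and 5 for the cko difference in 6h change, and its size factors in edgeR gave 1 for cko against wt at 0h. With no filter the counts were 1 (ER arm) and 1 (ATF4 arm) for cko against wt at 0h, 2 (ATF4 arm) for cko against wt at 6h, 9 (ATF4 arm) for dbko against cko at 0h, 2 (ER arm) for the cko difference and 6 (ATF4 arm) for the dbko difference in 6h change. Shares of all genes called in these runs are not given here, so these counts cannot be set against them. The cause of the shifts in count was not tested. The replicate block gave 1 ATF4 arm gene for cko against wt at 6h and 0 ER arm genes for the cko difference, and left 163 of 166 member calls. It changed no other member call than the 3 lost and 5 gained that are given beside the results. The other counts stayed within 1.5 times, and no member call reversed in any run. With 2 libraries a group, differences within the replicate spread cannot be shown.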
